A study of Caenorhabditis elegans with 2 samples.

Results

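The 200 clusters of RNA 3' ends that held the most reads in nuclei sorted from Caenorhabditis elegans were described here, out of 108539 clusters on the nuclear chromosomes. A cluster is a short stretch of one strand in which the position with the most reads takes every free position within 24 nt, and it is taken here as one place where transcripts are cut and receive a poly(A) tail. Whether some clusters came from priming at A-rich stretches inside transcripts was not tested, because no genome sequence was used. The 200 were chosen by their reads in the sorted library, the highest of all clusters, so their levels there and every ratio built on them are given as a description. They made up 0.184% of the clusters and held 2650764 sorted reads, 56.4% of the library (exact 95% interval 56.3 to 56.4), and 5150232 input reads, 55.9% (55.8 to 55.9).

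The study sequenced 3' ends from 1 library of sorted nuclei, labelled as intestine and as nuclear RNA, and from 1 library of input nuclei, labelled as mixed tissues and as total RNA. Both came from worms of strain JM149, grown at 25 °C in liquid culture with stages mixed and passed through a strainer to enrich adults. The series title concerns expression and alternative polyadenylation in the intestine. The sources used here do not give the transgene of JM149, its promoter or the 3' end it carries. Both libraries were primed with an oligo(dT) stretch of 24 T, amplified as antisense RNA and then by 12 PCR cycles. With 1 library per group no value has a replicate check, and no test between groups was possible. Every interval and floor in the text is a 95% exact one or a count limit that covers counting error only, because amplified reads carry no molecular identifiers and several can stem from one molecule.

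The sorted library held 4702544 reads on the nuclear chromosomes and the input library 9220245, so 3 reads correspond to 0.638 reads per 1000000 nuclear reads (RPM) in sorted and 0.325 RPM in input nuclei. Mitochondrial reads were 0.146% of sorted and 0.255% of input reads. Defining markers of other tissues were not at 0 in sorted nuclei, and some were above input there, by the ratio of sorted RPM over input RPM. The body wall muscle myosin gene unc-54 had 938 sorted and 691 input reads, a ratio of 2.66 (2.41 to 2.94). The neuronal synaptobrevin gene snb-1 had 928 and 723 reads (2.52, 2.28 to 2.78), and the cuticle collagen gene rol-6 had 3274 and 2847 reads (2.25, 2.14 to 2.37). Whether any of these reads stem from the transgene of JM149 was not tested. All 3 genes pass the 2-fold limit used below. Other such markers did not: myo-3 of body wall muscle stood at 1.04 (0.779 to 1.38), myo-2 of the pharynx at 0.582 (0.329 to 0.984), and pgl-1, of germ-line P granules, at 0.643 (0.505 to 0.811). elt-2, the GATA factor that defines the intestine, had 150 sorted and 95 input reads (3.1, 2.38 to 4.05), which also passes. None of these genes was among the 200 clusters. In the marker lists, each gene was counted as the sum of its clusters with at least 20 reads. Of 25 body wall muscle genes, 1 was higher and 3 were lower by that limit, with a median log2 ratio of -0.60. Of 55 neuron genes, 2 were higher and 3 lower (-0.32), and of 149 hypodermis and cuticle genes, 1 and 37 (-0.92). Of 33 intestinal genes, 18 were higher and 1 lower (1.15). Over all 9801 protein-coding genes, 13.7% were higher and 5.12% lower. What part other cell types had in the levels below was not tested. In such bulk libraries, fewer cells of a type and less RNA per cell cannot be told apart. The libraries also differ in their RNA label, nuclear against total. Tissue and RNA fraction therefore cannot be told apart in any ratio given here.

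As background, a messenger RNA ends where a protein complex recognises a signal near the end of the transcript, cuts it and adds the poly(A) tail. Many worm genes have several such places, and the one used sets how much of the 3' untranslated region the RNA keeps. The worm intestine is a tube of large polyploid cells that digests bacteria with secreted and lysosomal proteases and lysozymes, makes yolk proteins for the oocytes and carries out much of the animal's detoxification and innate defence.

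The ratio used throughout is sorted RPM over input RPM, with its interval in parentheses. A call of higher or lower needed the bound of the interval nearest 1 to pass 2-fold. Of the 200, 47 (23.5%) were higher in sorted nuclei, against a background of 15.6% over the 15049 clusters with at least 20 reads, and 21 (10.5%) were lower, against a background of 6.17%. At 4-fold, 18 (9%) were higher, against 6.53%, and 1, the collagen gene col-122, was lower (0.5%), against 1.09%. The other 132 passed neither 2-fold limit. Ranking by sorted reads favours clusters that are high in the sorted library, so nothing is read from these shares. The ratio was above 1 in 103 clusters and below 1 in 97, with a median log2 ratio of 0.07, quartiles of -0.57 and 0.99 and a range of -2.25 to 4.11. TMM scaling, which shifts every log2 ratio by -0.08, puts the median at -0.01 and 97 clusters above 1, so its sign is not fixed. Over all 15049 clusters the median was also 0.07.

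Reads were concentrated in few clusters. The first 10 held 18.6% of sorted and 12.6% of input reads, the first 50 held 36.3% and 33.1%, and the first 100 held 45.9% and 44.7%. 26 clusters made up 50% of the members' sorted reads and 28 made up 50% of their input reads. Levels in sorted nuclei ran between 753 and 65698 RPM with a median of 1484, and levels in input nuclei between 61.0 and 25384 RPM with a median of 1450. Input levels were not used to choose the members. Sorted levels fall in order of rank by the rule, so a wider spread of input levels at a given rank was fixed in advance.

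**Figure D1:**
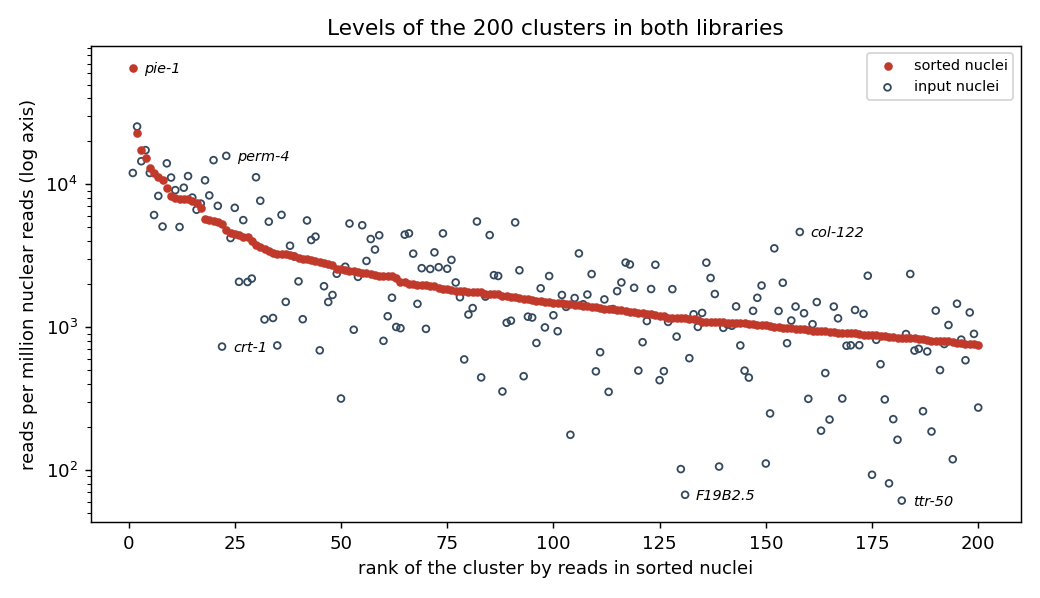
Level of each of the 200 clusters in sorted nuclei (filled) and input nuclei (open), in RPM on a log axis, against the rank by sorted reads; each point is 1 library. pie-1 stands apart at 65698 RPM in sorted nuclei, while the open points of F19B2.5 and ttr-50 lie more than 10-fold below their filled points.

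Most of the list was also abundant in input nuclei. 148 of the 200 (74%) were among the 200 largest clusters of the input library, 179 were among its 400 largest and 193 among its 1000 largest. The 7 others were ttr-50, F19B2.5, F14B8.5, clc-25, C32H11.4, F08F1.3 and T06A1.5, and ttr-50, at input rank 1553 with 562 input reads, was the lowest placed. On the other side, the input library's own 200 largest clusters held 52.7% of sorted and 59.4% of input reads. Of them, 12 (6%) were higher and 42 (21%) lower in sorted nuclei, against 15.6% and 6.17% of all clusters with at least 20 reads. Ranking by input reads favours ratios below 1, so nothing is read from these shares. The largest input clusters outside the 200 were col-19, an adult cuticle collagen gene at sorted rank 233 with a ratio of 0.210, and try-14 at sorted rank 352 with a ratio of 0.219.

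The edge of the list fell in a flat stretch of the ranking. The next to last member, nlp-40, a neuropeptide gene known for its release from the intestine, had 3560 sorted reads, and the last, F54D5.4, had 3541 (753 RPM). Just outside, pas-6, a proteasome subunit gene, had 3536 sorted reads and fat-2, a fatty acid desaturase gene, had 3527. The next 200 clusters by sorted reads held 45 (22.5%) called higher and 14 (7%) called lower, with a median log2 ratio of -0.01. The shares over all clusters with at least 20 reads were 15.6% and 6.17%. These clusters too were ranked by sorted reads, so nothing is read from their shares.

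The largest cluster lay in pie-1, which encodes a zinc-finger protein that keeps transcription silent in the germ-line precursors of the embryo. At III:12429046 of the plus strand (file position), 29 nt before the annotated end, it had 308946 sorted and 110708 input reads, or 65698 RPM in sorted and 12007 RPM in input nuclei. That was 6.57% of all sorted reads (6.55 to 6.59), against 1.20% of input reads (1.19 to 1.21), a ratio of 5.47 (5.43 to 5.51), and it was the eighth cluster of the input library. The next cluster, rps-21, had 23029 RPM in sorted nuclei. Within it, 64.5% of sorted and 63.9% of input reads fell on the leading position, 19.8% and 19.2% on the position before it, and 9.63% and 10.6% on a position 9 nt downstream. The annotated end of pie-1 itself was hardly used, with 43 sorted and 21 input reads in its cluster, and the single cluster held 308946 of the gene's 309304 sorted and 110708 of its 110834 input reads. The sources used here do not say whether a transgene in JM149 carries a 3' end of pie-1, and whether this cluster holds reads of a transgene was not tested. The other 5 germ-line members had ratios below 1, as described below.

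Ribosomal protein genes formed the biggest group. 51 of the 200 clusters lay in 50 of the 84 annotated genes of the small (rps) and large (rpl, rla) ribosomal subunits, 16 of them within the first 25 ranks, and together they held 22.0% of sorted and 26.4% of input reads. None was called higher and 4 were called lower, 12 had a ratio above 1, and their median log2 ratio was -0.38, against 0.07 over all clusters. Over the whole list of 84 genes, each taken as the sum of its clusters with at least 20 reads, 0 were higher and 7 lower, with a median of -0.33. Counted in that way, 13.7% of all 9801 protein-coding genes were higher and 5.12% were lower, with a median of -0.01, and the gene counts of the lists below are to be set against these shares.

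Single ribosomal clusters had ratios between 0.320 and 1.98. rps-21, at rank 2 and first in input, had 23029 RPM in sorted and 25384 RPM in input nuclei (0.907, 0.901 to 0.914). rla-1, a stalk protein gene at rank 3, had 17522 and 14511 RPM (1.21, 1.20 to 1.22), and rpl-24.1 had 15334 and 17357 RPM (0.883, 0.876 to 0.891). These were near parity. rps-17 was the highest of the group with 12091 RPM in sorted and 6095 in input nuclei (1.98, 1.96 to 2.01), a ratio that missed the 2-fold limit and passes it when pie-1 is left out of the scaling, and rpl-15 followed with 4016 and 2187 RPM (1.84, 1.80 to 1.87). The called ones stood at the other end. rps-2 had 1758 RPM in sorted and 5491 RPM in input nuclei (0.320, 0.313 to 0.328). rpl-31, at input rank 4, had 5504 and 14770 RPM (0.373, 0.368 to 0.378). rpl-12 had 1853 and 4530 RPM (0.409, 0.400 to 0.419), and rpl-33 had 1430 and 3282 RPM (0.436, 0.424 to 0.448). Within the group, ratios therefore differed by far more than their counting intervals. Ratios close to 1 in this group have no fixed sign: rps-9, at 0.948, passes 1 under that last scaling.

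The 7 clusters of translation factor genes passed no limit. The elongation factor gene eef-1A.1, which brings aminoacyl-tRNA to the ribosome, had 8020 RPM in sorted and 9107 RPM in input nuclei at its larger cluster (0.881, 0.870 to 0.891). iff-1, an eIF5A gene, was the lowest at 0.531 (0.515 to 0.548), and eef-2, the translocation factor gene, was the only one above 1, at 1.08 (1.04 to 1.12). Their median log2 ratio was -0.49. Of the respiratory chain list, cox-7C, a subunit gene of cytochrome c oxidase, had 2478 RPM in sorted and 5312 RPM in input nuclei (0.467, 0.457 to 0.476), and cox-5B had 1275 and 2746 RPM (0.464, 0.451 to 0.477), both lower, though neither call holds when pie-1 is left out of the scaling. The mitochondrial ADP/ATP carrier gene ant-1.1 gave the other 2 clusters of the list and passed no limit in either. Among all 62 genes of that list with clusters, 1 was higher and 7 were lower, with a median log2 ratio of -0.28. Glycolysis was represented by the aldolase gene aldo-2 alone (0.921, 0.892 to 0.952). ubq-1, the polyubiquitin gene, stood at 0.862 (0.845 to 0.878) and the proteasome lid gene rpn-12 at 0.531 (0.511 to 0.550).

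Of 15 clusters in genes of proteases, lysozymes and saposin-like proteins, 6 were called higher and none lower, and all 15 had a ratio above 1, or 14 under TMM scaling. Their median log2 ratio was 0.97, and together they held 3.29% of sorted and 2.04% of input reads. Among all 65 genes of that list with clusters, 21 were higher and none lower, with a median of 0.93. The count of 6 falls to 4 under TMM scaling and to 5 under median-of-ratios scaling, which shifts every log2 ratio by -0.07.

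The highest of these was lys-2, a lysozyme gene, with 2880 RPM in sorted and 687 RPM in input nuclei (4.19, 4.07 to 4.32). Its neighbours lys-1 (2.05, 1.98 to 2.12) and lys-3 (1.96, 1.88 to 2.04) on chromosome V lay close to the limit without passing it, though lys-1 passes when pie-1 is left out of the scaling. The gut esterase gene ges-1, a classic intestinal marker, had 827 RPM in sorted and 258 RPM in input nuclei (3.21, 3.05 to 3.38) at rank 187. cpz-2, a cathepsin Z gene, stood at 2.88 (2.75 to 3.02) and asp-1, an aspartyl protease gene of the intestine, at 2.81 (2.70 to 2.91). asp-3 reached 2.15 (2.1 to 2.20) and cpr-1, a cathepsin B gene, 2.12 (2.07 to 2.16), and these 2 are the calls that TMM scaling loses. The most abundant cluster of the group was not among the called ones: asp-5, at rank 16, had 7423 RPM in sorted and 6637 RPM in input nuclei (1.12, 1.1 to 1.13). lys-7 (1.08, 1.05 to 1.1) and cpr-5 (1.05, 1.02 to 1.09) were also close to 1, and cpr-5 is the one that TMM scaling puts below it.

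C-type lectins and other immune effectors gave 7 clusters, 3 of them higher and none lower, with a median log2 ratio of 0.87. clec-196 had 1444 RPM in sorted and 176 RPM in input nuclei (8.20, 7.76 to 8.66), far above the rest. clec-65 stood at 2.99 (2.89 to 3.1), and clec-63, less than 10000 nt away on the same strand, at 1.83 (1.79 to 1.88). clec-85 reached 2.1 (2.04 to 2.17), a call that both other scalings lose, while clec-60, clec-80 and dod-6 lay between 1.20 and 1.47. Of the transthyretin-like genes, whose products are small secreted proteins, 3 of 4 clusters were higher. Over the 42 transthyretin-like genes with clusters, 10 were higher and 3 lower, with a median log2 ratio of 0.22. ttr-50 had 838 RPM in sorted and 61.0 RPM in input nuclei (13.7, 12.6 to 15), ttr-41 stood at 3.03 (2.89 to 3.18), ttr-51 at 2.38 (2.29 to 2.48), not called from its leading position alone, and ttr-45, not called, at 1.27 (1.23 to 1.32).

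The list of chaperones and protein folding gave 3 clusters, of which 2 were higher and none lower. Over its 69 genes with clusters, 12 were higher and 2 lower, with a median log2 ratio of 0.36. crt-1, the calreticulin gene of the endoplasmic reticulum, had 5282 RPM in sorted and 730 RPM in input nuclei (7.23, 7.04 to 7.43), so that it stood at rank 22 in sorted and rank 223 in input nuclei. Of the protein disulphide isomerase genes, which encode enzymes of the same compartment, pdi-2 had 1748 and 444 RPM (3.94, 3.79 to 4.09) and pdi-3 had 4284 and 5614 RPM (0.763, 0.751 to 0.776). The 2 isomerase genes thus lay on opposite sides of 1. lmp-1, which encodes a lysosomal membrane protein, was at rank 8 with 10653 RPM in sorted and 5064 RPM in input nuclei (2.1, 2.08 to 2.13), a call that TMM and median-of-ratios scaling lose. lmp-1 is in none of the lists. The vacuolar ATPase list gave 2 clusters, and over its 21 genes 2 were higher and 1 was lower. vha-20 stood at 4.40 (4.28 to 4.53), and vha-2, for a membrane subunit of that proton pump, at 0.772 (0.746 to 0.798).

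The yolk protein genes, which the adult intestine transcribes, were not higher in sorted nuclei. vit-5 had 3161 RPM in sorted and 3122 RPM in input nuclei (1.01, 0.993 to 1.03), an interval that includes 1, and its ratio is below 1 under TMM and median-of-ratios scaling. vit-6 had 1963 and 2587 RPM (0.759, 0.741 to 0.777), and vit-2 had 1699 and 2311 RPM (0.735, 0.716 to 0.754). None of the 3 clusters, nor any of the 6 vit genes as a whole, passed a 2-fold limit. act-5, the actin gene of intestinal microvilli, had 7928 RPM in sorted and 5027 RPM in input nuclei (1.58, 1.56 to 1.6), and act-3, one of the near-identical actin genes of muscle, 1325 and 1786 RPM (0.742, 0.720 to 0.764). vit-2 and vit-5 too have close copies, and the sources used here do not say how reads that map to several places were handled, so single values of such families are uncertain.

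Over the 10 clusters of the whole intestinal marker list, 5 were higher and none lower, or 3 higher under TMM or median-of-ratios scaling, with a median log2 ratio of 0.87. The list also contains yolk, protease and lectin genes that were counted above. Summed over its 33 genes with clusters it came to 29479 RPM in sorted and 20184 RPM in input nuclei, and 18 genes were higher and 1 lower.

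All 6 collagen clusters among the 200 were lower in sorted nuclei, against 6.17% of all clusters with at least 20 reads. Their median log2 ratio was -1.62. Among all 123 genes of the collagen list with clusters, 0 were higher and 31 lower, with a median of -0.91. Collagens of the col family build the cuticle and are made by the hypodermis. col-122 had 972 RPM in sorted and 4638 RPM in input nuclei (0.209, 0.203 to 0.216), the lowest ratio of the 200. col-175 stood at 0.283 (0.274 to 0.291), col-124 at 0.300 (0.292 to 0.307) and col-8 at 0.354 (0.342 to 0.366). col-181 (0.385, 0.376 to 0.395) and col-160 (0.445, 0.435 to 0.455) completed the group. sqt-3, another collagen gene, fell short of the limit at 0.700 (0.677 to 0.724). The hypodermis and cuticle list summed to 22342 RPM in sorted and 52842 RPM in input nuclei over 149 genes, of which 1 (rol-6) was higher and 37 were lower. The 6 collagen clusters held 0.815% of sorted and 2.49% of input reads.

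Of the 6 germ-line and oocyte clusters, 4 were lower, and 2 of these calls, of perm-2 and cpg-1, are lost without pie-1 in the scaling or from leading positions alone. The share of lower clusters was 6.17% over all with at least 20 reads. Among all 39 genes of the list with clusters, 2 were higher and 9 lower. perm-4, needed for the permeability barrier of the eggshell and at input rank 3, had 4789 RPM in sorted and 15828 RPM in input nuclei (0.303, 0.298 to 0.307). Its neighbour perm-2, with the same role, stood at 0.466 (0.456 to 0.475), the eggshell proteoglycan gene cpg-1 at 0.465 (0.455 to 0.475) and the chitin-binding gene cbd-1 at 0.386 (0.374 to 0.397). pos-1, which like pie-1 encodes a maternal zinc-finger protein, had 2303 and 3492 RPM (0.660, 0.645 to 0.674) and was not called. pie-1 at 5.47 was the only one of these 6 clusters above 1. The list summed to 82128 RPM in sorted and 50050 RPM in input nuclei, while its median over 39 genes was -0.93 on the log2 scale. pie-1 made up 65774 of the sorted and 12021 of the input RPM in that sum, and what part a transgene had in it was not tested.

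Body wall muscle gave act-3 and the troponin T gene tnt-2, with 1218 RPM in sorted and 2733 RPM in input nuclei (0.446, 0.433 to 0.459), which was lower. The muscle list summed to 6714 RPM in sorted and 10791 RPM in input nuclei over 25 genes. Of genes listed for sperm, nspg-10 was higher (3.76, 3.56 to 3.96), whereas nspc-20 (0.897, 0.872 to 0.923) and nsph-3.2 (0.675, 0.656 to 0.695) passed no limit; these families have near-identical members. Among all 87 genes of the sperm list with clusters, 8 were higher and 9 lower. The lists for pharynx (327 RPM in sorted, 1157 RPM in input nuclei), neurons (1971 and 2381 RPM) and coelomocytes with gonad sheath (79.5 and 189 RPM) had no member. Histones were represented by his-72, a replication-independent H3.3 gene, at 1.08 (1.06 to 1.11), and detoxification enzymes by gst-1, a glutathione S-transferase gene, at 1.53 (1.48 to 1.58). No cluster of the lists for lipid metabolism, the one-carbon cycle, metal handling or the nuclear hormone receptors and GATA factors reached the 200.

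**Figure D2:**
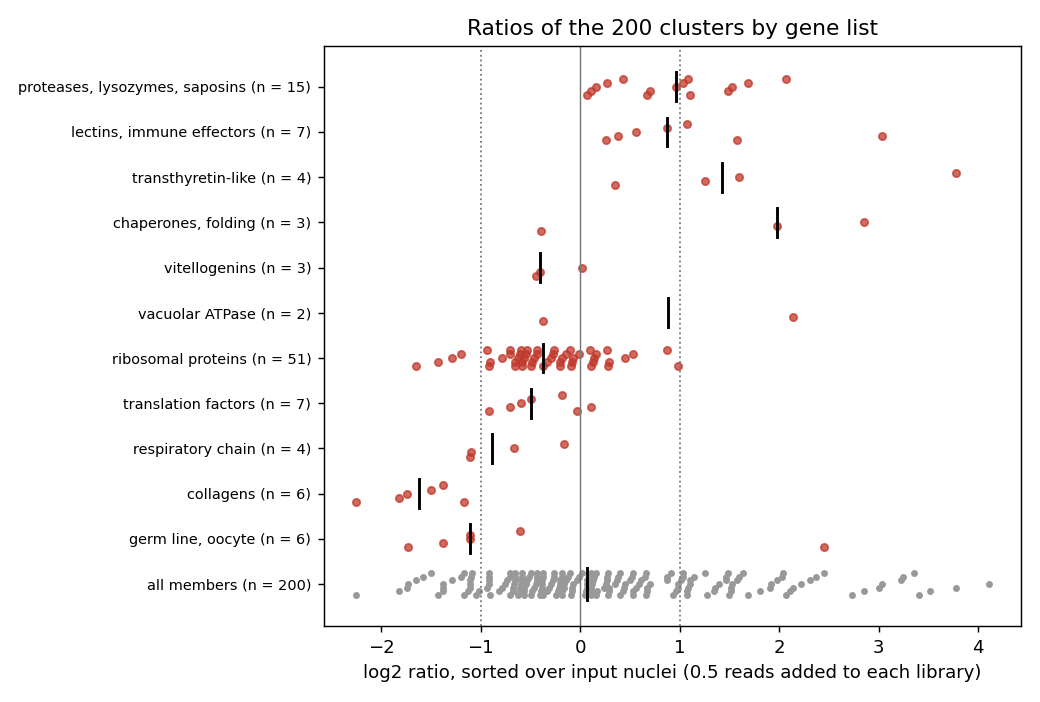
log2 ratio of sorted over input nuclei for each member (points) by gene list, with list medians as black bars, parity as a solid line and 2-fold as dotted lines; 1 library per group. All 15 points of proteases, lysozymes and saposins lie right of 0 (14 under TMM scaling), all 6 collagens lie left of the lower 2-fold line, and pie-1 is the lone germ-line point at 2.45.

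80 of the 200 clusters were in none of the lists, and they held 30 of the 47 higher calls and 4 of the 21 lower calls, with a median log2 ratio of 0.53. Over all clusters with at least 20 reads, 15.6% were higher and 6.17% lower. Ranking by sorted reads favours high ratios, so nothing is read from these counts. The highest ratio of all was that of F19B2.5, with 1155 RPM in sorted and 66.9 RPM in input nuclei (17.3, 15.9 to 18.8). C32H11.4 had 1157 and 101.3 RPM (11.4, 10.7 to 12.3), and F14B8.5 had 856 and 80.5 RPM (10.6, 9.83 to 11.5). Sorted and input levels of these differed by a factor of 10 or more. F08F1.3 followed at 10.3 (9.58 to 11), T06A1.5 at 9.36 (8.75 to 10.0), F14B8.6 at 8.02 (7.70 to 8.35) and C18H9.6 at 6.64 (6.21 to 7.11). clc-25, one of the claudin-like genes, whose relatives encode membrane proteins of cell junctions, had 879 RPM in sorted and 92.4 RPM in input nuclei (9.51, 8.83 to 10.3). All of these except clc-25 carry a sequence name and no gene symbol in the annotation.

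Further members outside the lists have known roles. dhs-3, a short-chain dehydrogenase gene whose product sits on lipid droplets, had 935 RPM in sorted and 188 RPM in input nuclei (4.97, 4.70 to 5.26). cul-3, a cullin gene of ubiquitin ligases, stood at 4.09 (3.89 to 4.30), and nlp-36, of the neuropeptide-like family, at 2.87 (2.80 to 2.94). All 3 were higher. let-23, the receptor gene for epidermal growth factor signals, stood at 2.76 (2.63 to 2.90), lact-3, a gene of the beta-lactamase-like family, at 2.63 (2.57 to 2.70), and swt-6, for a SWEET sugar transporter, at 2.21 (2.15 to 2.27). fah-1, an enzyme gene of tyrosine breakdown (1.88, 1.81 to 1.95), eat-6, for the sodium pump (1.58, 1.52 to 1.65), and sqst-1, for an autophagy adaptor (1.51, 1.46 to 1.56), were above 1 and not called. inx-2 (1.05, 1.01 to 1.09) and inx-13 (1.03, 0.997 to 1.07), for gap-junction innexins, and pam-1, an aminopeptidase gene (1.05, 1.02 to 1.08), lay close to 1 and fall below it under both other scalings. The mitochondrial porin gene vdac-1 stood at 0.805 (0.779 to 0.832) and ndk-1, for nucleoside diphosphate kinase, at 0.626 (0.615 to 0.637).

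The 4 lower clusters outside the lists were grl-25 (0.335, 0.330 to 0.341), ztf-7 (0.384, 0.371 to 0.397), F01G4.6 (0.458, 0.446 to 0.471) and daf-41 (0.471, 0.463 to 0.478). daf-41 encodes a co-chaperone of Hsp90, and its call is lost when pie-1 is left out of the scaling. grl-25, of the ground-like family, was abundant in both libraries, with 3757 RPM in sorted and 11204 RPM in input nuclei. It is also the one member placed in an annotated intron, and ztf-7 is one of 3 placed past an annotated end, so these 2 names are less sure than most.

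Chromosome IV held 42 members, or 21%, against 17.6% of all clusters with at least 20 reads, III held 39 (19.5%, against 16.3%) and V held 37 (18.5%, against 18.9%). I held 30 (15%, against 16.9%), X 27 (13.5%, against 13.6%) and II 25 (12.5%, against 16.7%). The X chromosome had no ribosomal protein cluster among its 27, and V had 3, against 15 on I, 14 on III, 13 on IV and 6 on II. On X, 12 members were higher and 3 lower with a median log2 ratio of 0.91, where 19.1% of all its clusters were higher and 5.7% lower. On V, 16 were higher and 2 lower with a median of 0.68, where 21% of all clusters were higher and 5.49% lower. These chromosomes thus held 28 of the 47 higher calls. On I, 1 was higher and 3 lower (median -0.21), on III 3 and 4 (-0.18), on IV 8 and 8 (-0.29) and on II 7 and 1 (0.30). Of all clusters, 10.5% were higher and 7.22% lower on I, 12.8% and 5.35% on III, 14.8% and 7.1% on IV, and 15.2% and 6.05% on II. Over all clusters with at least 20 reads, the medians were 0.23 on X and on V, and between -0.10 and 0.06 on the other chromosomes. No test was run of these differences between chromosomes.

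**Figure D3:**
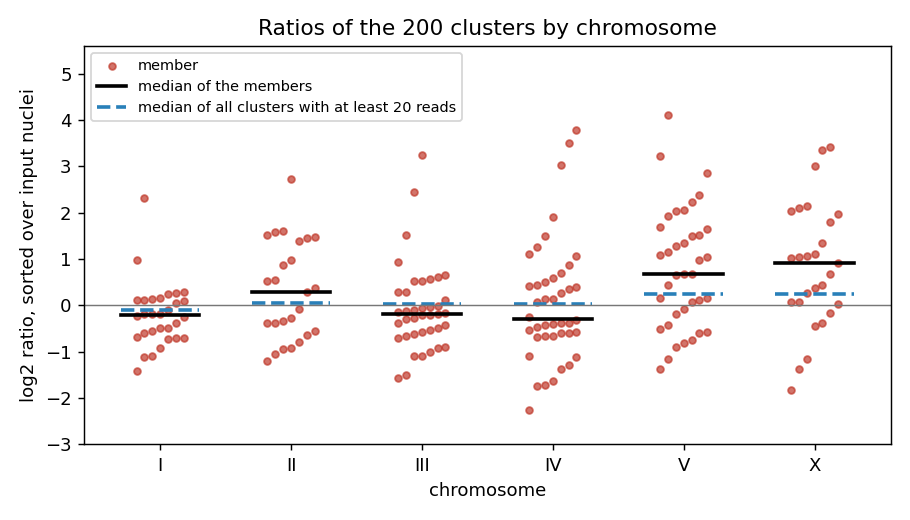
log2 ratio of sorted over input nuclei for each of the 200 clusters (points) by chromosome, with the members' median (solid) and the median of all clusters with at least 20 reads (dashed); 1 library per group. The members' medians on V and X, 0.68 and 0.91, lie above both the dashed lines of these chromosomes and the medians of the other chromosomes.

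Some members lay side by side, with 18 pairs of neighbours within 10000 nt. F14B8.5 and F14B8.6, 4454 nt apart on one strand of X, stood at 10.6 and 8.02. F23A7.4 and F23A7.8, 764 nt apart on X, stood at 4.11 (3.90 to 4.33) and 4.31 (4.07 to 4.57), and F54D5.4 and F54D5.3 on II at 2.76 (2.62 to 2.90) and 2.85 (2.77 to 2.94). In these pairs the neighbours were both called higher and had similar values. In others they were not alike: rla-1 and Y37E3.8, 593 nt apart on one strand of I, stood at 1.21 and 0.530 (0.521 to 0.540), and rla-0 and tct-1, 977 nt apart, at 1.08 (1.07 to 1.09) and 0.613 (0.599 to 0.627).

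Most of the 200 clusters lay at annotated transcript ends once the positions were shifted to the annotation. Each window's offset was the value with the most exact matches between positions with at least 10 reads and annotated ends. Part of the agreement, above all the exact matches, was therefore built in. After each 0.5 Mb window's commonest offset was added, 157 (78.5%) lay within 24 nt of an annotated protein-coding end, 129 within 5 nt and 41 exactly on it. The same share was 81% in the next 200 clusters and 57.1% over all 15049 clusters. Another 35 lay in 3' UTR exons, between 26 and 250 nt before the end, among them pie-1, rps-8, eef-1A.1 and, farthest, acl-1, an acyltransferase-like gene. Together these 192 held 97.5% of the members' sorted and 96.5% of their input reads. None lay in coding sequence.

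The few exceptions were asp-1, rpl-43 and ztf-7, which lay 100, 50 and 28 nt past their annotated ends, grl-25 in an intron, and F46E10.18. The last was placed in a 5' UTR exon of that gene, 65 nt past the end of another annotated gene on the strand, and had 1650 RPM in sorted and 354 RPM in input nuclei (4.66, 4.47 to 4.86). A cluster at II:8789715 of the plus strand lay in a pseudogene, WBGene00014309, with 1069 and 744 RPM (1.44, 1.39 to 1.49). The remaining 2 had no annotated gene. X:17400413 of the minus strand had 1962 RPM in sorted and 972 RPM in input nuclei (2.02, 1.96 to 2.08), called higher only without pie-1 in the scaling. V:19641381 of the minus strand had 1331 and 352 RPM (3.78, 3.63 to 3.95), and with windows of 0.25 or 1 Mb it falls in a 3' UTR exon of Y43F8C.7, because the offset of its 0.5 Mb window differs from theirs. These positions are those of the files, whose build the sources used here do not name.

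The shape of a cluster was not used to rank it, and it was nearly the same in both libraries. The leading position held a median of 71.2% of a cluster's reads in sorted and 71.7% in input nuclei. The weighted SD of the position had a median of 1.45 nt in sorted and 1.42 nt in input nuclei, and a cluster spanned between 16 and 49 used positions. In 194 of 200 clusters (97%) the most used position was the same in both libraries, against 81.0% over all clusters with at least 20 reads, most of which have far fewer reads. The largest leading share was that of cpr-1, with 88.4% of sorted and 87.3% of input reads on its leading position. The smallest was that of rps-9, with 21.7% and 24.7%. Its 3 main positions, 0, 6 and 10 nt downstream of the leading one, each held between 19% and 24.7% of reads in both libraries. The SD gave another order. It was 1.53 nt in sorted and 2.13 nt in input nuclei for cpr-1, above the medians, and 4.91 and 5.14 nt for rps-9. For the ant-1.1 cluster at III:13464344 it was 8.80 and 9.08 nt.

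In 4 clusters (2%) the share at the leading position differed by at least 10 points with intervals that did not overlap, against a background of 3.35% of the 7960 clusters with at least 20 reads in each library. ant-1.1, at III:13464344, had 54.3% of sorted and 33.7% of input reads on its leading position, and 23.4% and 38.5% on a position 19 nt downstream, so the most used position changed. spp-14, a saposin-like gene, had 26.8% and 40.05% on its leading position, and 38.6% and 27.6% on one 4 nt upstream. In gst-1 the leading position held 52.7% and 42.6%, and in one cluster of nap-1 it held 72.9% and 62.8%. In 4 further clusters, of rps-9, bcf-1, asp-3 and lys-2, the most used positions of the libraries lay 2 to 10 nt apart, and the leading shares differed by less than 10 points.

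**Figure D4:**
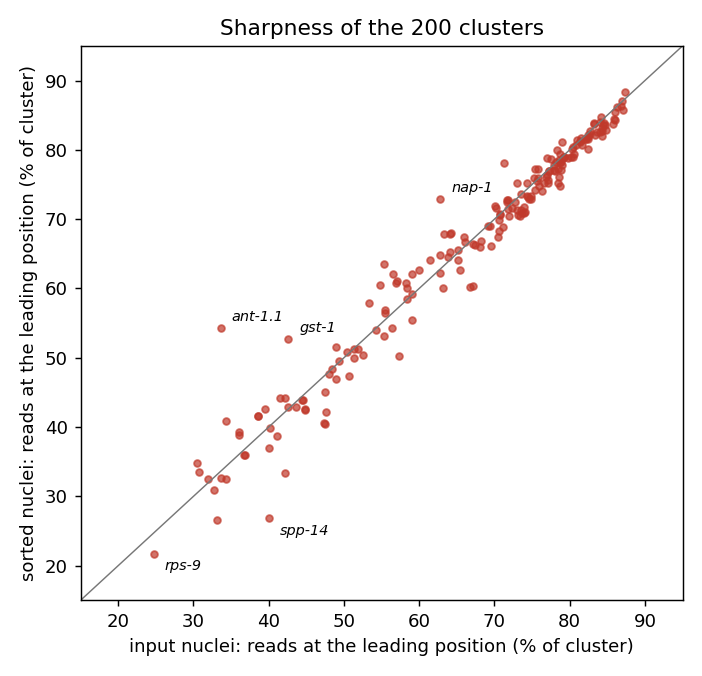
Share of each cluster's reads on its leading position in sorted nuclei (vertical, %) against input nuclei (horizontal, %), 1 point per cluster, with the line of equality; 1 library per group. Most points lie on the line, and ant-1.1 (54.3% in sorted, 33.7% in input nuclei) and spp-14 (26.8% and 40.05%) lie farthest from it.

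For most member genes the cluster was nearly the whole gene. 181 of the 200 held at least 90% of their gene's sorted reads. Of 193 distinct genes, 21 (10.9%) had several clusters with at least 5% of reads in either library. That share was 32.2% of the 6590 genes that had 20 or more reads in both libraries. Ranking single clusters by sorted reads favours genes whose reads sit in 1 cluster, so nothing is read from these shares. Of those 21 genes, 1 had a share that differed by at least 20 points with intervals apart, against a background of 18% of the 2122 genes with several clusters.

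That gene was nap-1, which encodes a nucleosome assembly protein, and it is among the 4 genes with 2 clusters in the 200. Its proximal cluster at IV:8377828, 141 nt before the annotated end, had 1066 RPM in sorted and 496 RPM in input nuclei (2.15, 2.07 to 2.24), called higher except under TMM and median-of-ratios scaling. Its distal cluster at IV:8377689, 2 nt before the end, had 936 RPM in sorted and 1497 RPM in input nuclei (0.625, 0.604 to 0.647). The proximal cluster held 50.9% of the gene's sorted reads (49.9 to 51.9) and 24.5% of its input reads (23.9 to 25.2), and the distal one 44.7% (43.7 to 45.7) and 74.2% (73.5 to 74.8). Reads of the gene therefore ended more often at the proximal place in sorted nuclei, and the proximal cluster exceeded its input level while the distal one did not.

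The other 3 genes with 2 clusters moved less. In ant-1.1 the proximal cluster held 43.5% of sorted and 35.2% of input reads, and in rpl-23 it held 78.7% and 85.1%. In eef-1A.1, whose clusters lie 43 nt apart, the proximal one held 85% and 86.2%. Shares thus moved toward the proximal place in ant-1.1 and away from it in rpl-23, by less than 10 points in each. Among genes whose other cluster fell outside the 200, F01G4.6 had 24.7% of sorted and 9.27% of input reads at its distal cluster, rpl-12 had 24.5% and 14.7% at its proximal one, and lys-3 had 38.9% and 31.9% at its distal one. In vha-2 the cluster among the 200 held 79.8% and 90.3%, and 2 clusters farther upstream held 10.8% and 6.1% of sorted and 4.4% and 3.87% of input reads.

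**Figure D5:**
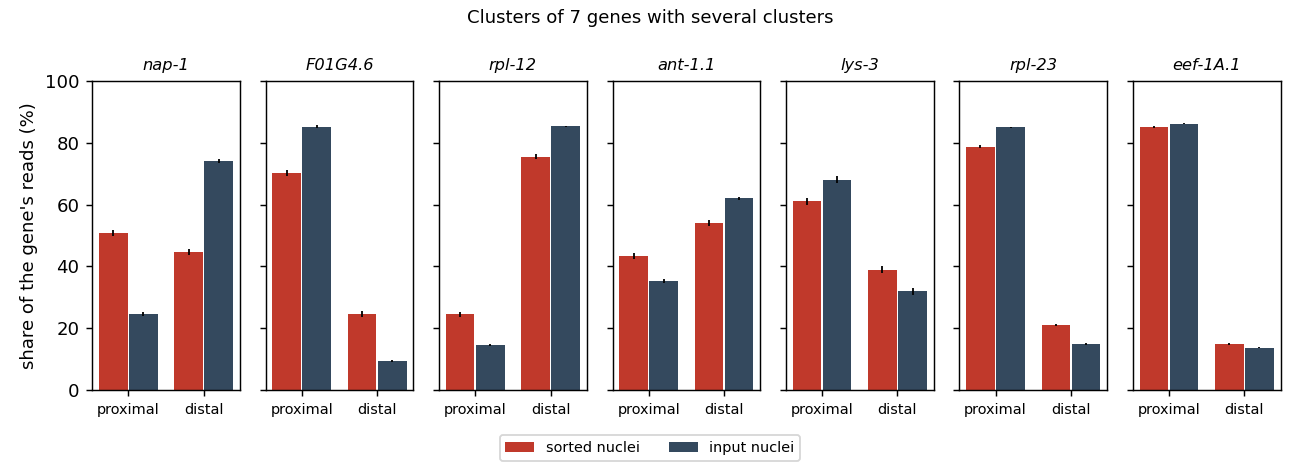
Share of a gene's reads (%) at its proximal and distal cluster in sorted nuclei (left bar of each pair) and input nuclei (right bar) for 7 genes with several clusters; bars are 1 library each and lines are exact 95% intervals of counting error. Only in nap-1 does the larger cluster change, with 50.9% of sorted and 24.5% of input reads at the proximal place.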

How the data were processed

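Per the labels, RNA 3' ends were sequenced from 1 library of sorted and 1 of input nuclei on an Illumina Genome Analyzer. The authors deposited, for each strand and position, unscaled counts of reads. Per the submitters' processing notes TopHat was used, its version unstated; what build the positions refer to and how A-rich or multiply mapped reads were treated is not given in the sources used here.

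Positions on nuclear chromosomes were clustered (24 nt) over both libraries and ranked by sorted reads. Names came from WBcel235 gene models (Ensembl release 115) after the commonest offset between positions with at least 10 reads and annotated ends was added in each of 203 windows of 0.5 Mb. The offsets ran between -7 and 120 nt in 200 windows and exceeded 1000 nt in 3 windows of V, so the files' build differs from WBcel235. No coordinate of that annotation is printed. A place within 24 nt of an end counted as the end, and a gene reached 300 nt downstream.

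Ratios were taken per 1000000 nuclear reads with exact (Clopper-Pearson) 95% intervals, log2 ratios with 0.5 reads added, in Python 3.11.15 and scipy 1.17.1. Alternatives used TMM scaling (edgeR 4.0.16), median-of-ratios scaling (DESeq2 1.42.0), other distances, list lengths and read minimums. Clustering and calls were tested on simulated data. The members, the 27 gene lists and the tests were chosen with earlier results of these data known. Named by rule were the first 25 ranks, the 12 highest and 12 lowest interval bounds, up to 4 members per list, genes with several clusters, unnamed clusters and the 6 largest differences in leading share; other members were named after their values were seen. No genome sequence was used here, so no sequence around the cut sites is shown, and neither a check for priming at A-rich stretches nor the planned count of polyadenylation signals was run.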

Additional observations from a re-analysis of the deposited data

How the results depend on the processing

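No paired analysis was possible because each group has 1 library, and no replicate could be left out. No cluster called higher or lower became called the other way under any scaling or from leading positions alone, but values near 1 changed side. The count of members called higher and lower at 2-fold was 47 and 21, and became 41 and 23 under TMM scaling, 42 and 23 under median-of-ratios scaling, 47 and 21 when scaled to reads outside the 200, and 45 and 20 from the leading positions alone. Leaving pie-1 out of the scaling, an alternative chosen after the data were seen, gave 51 and 16. TMM scaling lost the calls of lmp-1, cpr-1, K06G5.1, asp-3, clec-85 and nap-1 and gained lower calls of spex-3 and hmg-1.1; median-of-ratios scaling did the same except that asp-3 stayed called. Without pie-1 in the scaling, daf-41, cox-7C, perm-2, cpg-1 and cox-5B were no longer called. Leading positions alone lost K06G5.1, perm-2, cpg-1 and ttr-51. Without a call, 6 ratios changed side of 1 under TMM scaling, 5 under median-of-ratios scaling, 4 without pie-1, 1 when scaled to reads outside the 200 and 3 (spp-14, pfd-1 and ant-1.1) from leading positions. The members' median log2 ratio of 0.07 became -0.01 under TMM scaling and -0.03 in a list of 100. Without the minimum of 20 reads, the background became 4.16% higher and 0.937% lower at 2-fold, and 1.24% and 0.151% at 4-fold. The 200 held 55.7% of sorted and 55.3% of input reads with 10 nt clusters, 57.02% and 56.45% with 50 nt clusters, and 55.75% and 55.6% when ranked by the leading position. A list of 100 held 45.9% and 44.7%, had 36% ribosomal members and 0% that were 4-fold lower, and a list of 400 held 66.4% and 67%, with 16.75% ribosomal. Of their members, 98% (50 nt), 91% (leading position) and 50% (list of 400) lay within 24 nt of a cluster of the 200. With 100 nt counted as the annotated end, 94.5% lay there. The planned signal count was not run.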

Other observations

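Of the 200 largest clusters of the input library, 52 were not among the 200 of sorted nuclei. This choice favours ratios below 1, so nothing is read from their ratios. col-19 had 640 RPM in sorted and 3050 RPM in input nuclei (0.210). try-14 had 391 RPM in sorted and 1791 RPM in input nuclei (0.219), and far-1, a fatty acid and retinol binding protein gene, had 502 and 1607 RPM (0.312). col-129 had 310 and 1206 RPM (0.257), and the troponin I gene unc-27, at sorted rank 204, had 738 and 1534 RPM (0.481). These were chosen after their values were seen.

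The smallest member had 3541 sorted reads and the fewest input reads were 562. If reads are taken as independent, counting error moved no ratio by more than about 10%. Several reads can stem from one molecule, so the true counting error can be larger. The spread between libraries of one kind is not known from 1 library per group.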
